A study of Mus musculus with 16 samples.

Results

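The glucocorticoid receptor gene Nr3c1, the ligand-regenerating enzyme gene Hsd11b1 and 6 genes that glucocorticoids induce (Sgk1, Fkbp5, Tsc22d3, Zbtb16, Klf9 and Dusp1) were followed in the liver and fat of mice with obese or control fathers. These 8 genes were taken by symbol from the 19505 genes named on the array, each with 1 probe set, and the set was chosen by the low Sgk1 values in the liver of offspring of obese fathers. Their liver differences between offspring groups are therefore a description from which no test result is read. The rule for that choice named no value in fat, but earlier results of these data were known when the set was chosen. The values in fat are therefore not an independent test. Levels are log2 values, so a difference of 1 is a factor of 2.

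Glucocorticoids are adrenal steroids, corticosterone in the mouse, whose release follows a daily rhythm and rises in stress and fasting. The hormone enters the cell, binds a receptor held ready by chaperones, and the receptor then moves to the nucleus, where it binds DNA or other factors and induces some genes while repressing others. In liver these targets take part in glucose production and amino acid breakdown, and in white fat in adipocyte differentiation and lipid turnover.

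All animals were male C57BL/6J mice, an inbred laboratory strain, aged 14 weeks, and all mothers were control females. Liver F1 and eWAT F1 were tissues of offspring whose fathers were obese after 12 weeks on a high-fat diet with 45% lipids begun at 8 weeks of age. Liver CT and eWAT CT came from offspring whose control fathers ate chow over the same period. Each group held 4 libraries from frozen tissue, eWAT being the labels' term for a white adipose tissue. The labels number biological replicates but name no father, litter, hour of sampling or fasting state. They also do not say whether liver and eWAT libraries of the same number came from the same mouse. A p-value here therefore refers to the scatter of these libraries, some of which may share a father or a mouse.

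Libraries correlated at 0.985 to 0.991 within liver and at 0.976 to 0.991 within eWAT over all probe sets. The sorted values of a liver and an eWAT library differed by up to 1.39 to 1.71, against at most 0.53 within a tissue, so the tissues appeared to have been normalised apart and levels were not tested between them. Hepatocyte markers had medians of 19.8 to 19.89 in liver, and adipocyte markers of 17.55 to 17.9 in eWAT, so both labels held. Several libraries also carried transcripts of neighbouring tissues. Medians of the 13 measured hepatocyte markers were 11.63, 14.04, 10.74 and 15.21 in eWAT F1, against 7.69, 7.09, 13.45 and 13.24 in eWAT CT. Seminal vesicle Svs2 stood at 16.22 in eWAT F1 replicate 1 and at no more than 4.88 in any other library. The pancreas marker median was 11.96 in Liver F1 replicate 4 and at most 5.19 in the other liver libraries. Muscle marker medians were 4.84 and 4.53 in Liver F1 replicates 1 and 2, against 3.64 to 3.81 in the other 6 liver libraries. They were thus low, below the medians of 5.23 and 5.22 over all probe sets of these libraries. Liver F1 replicates 3 and 4 had Dbp, a clock output gene, at 12.39 and 11.87, and Saa1, an acute phase gene, at 14.09 and 13.01. The other liver libraries had Dbp at 6.22 to 9.04 and Saa1 at 5.57 to 7.88. A fit without either pair of F1 livers keeps only the other pair. The muscle trait and the Dbp and Saa1 trait therefore cannot be told apart.

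The receptor binds DNA as a dimer at variants of a palindrome whose 2 arms, AGAACA and TGTTCT in its ideal form, are set 3 bases apart. Promoter windows of 300 bases, from 250 before to 50 after each annotated start, were taken from RefSeq (GRCm38.p6). Those used here cover 6 of the 8 genes, 13 windows in all. Nr3c1 and Zbtb16 are named only. On either strand the exact palindrome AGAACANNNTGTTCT occurred in 3 of 32851 windows (0.00913%), and 1 of these 3 belonged to Sgk1. The others belonged to Acnat2, whose log2 difference was -0.27 in liver and 0.24 in eWAT, and to Gm35041, which had no value in either fit. A single arm, TGTTCT, occurred in 19.0% of windows. TGACG, the core of the cAMP response element, occurred in 20.8% of windows, the GC box GGGCGG in 35.7% and the E-box CACGTG in 7.15%.

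A window each of Sgk1, Tsc22d3, Dusp1 and Fkbp5 is shown. The first 3 are the targets with lower F1 means in both tissues. Fkbp5 is the target with the largest difference the other way. For Sgk1 the window shown is the 1 of 6 with the palindrome, and for Tsc22d3 the 1 of 3 with an arm. Capitals mark receptor arms, with the palindrome written as 1 run, and TGACG on either strand. They are given 5′ to 3′ on the strand of the gene, in the order chr10:21993640-21993939 (plus), chrX:140600473-140600772 (minus), chr17:26508423-26508722 (minus) and chr17:28486100-28486399 (minus).
Sgk1: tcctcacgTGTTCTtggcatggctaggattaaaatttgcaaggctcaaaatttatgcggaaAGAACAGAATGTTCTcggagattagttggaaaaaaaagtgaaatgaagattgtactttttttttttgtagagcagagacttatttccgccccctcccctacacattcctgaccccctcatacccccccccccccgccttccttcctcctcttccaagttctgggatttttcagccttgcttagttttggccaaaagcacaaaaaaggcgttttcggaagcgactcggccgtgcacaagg
Tsc22d3: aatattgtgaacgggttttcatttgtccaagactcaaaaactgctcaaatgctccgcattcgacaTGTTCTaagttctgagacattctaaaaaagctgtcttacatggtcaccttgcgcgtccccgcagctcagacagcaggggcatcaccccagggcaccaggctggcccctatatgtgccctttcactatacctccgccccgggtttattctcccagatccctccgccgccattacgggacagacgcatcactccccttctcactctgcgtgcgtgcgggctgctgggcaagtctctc
Dusp1: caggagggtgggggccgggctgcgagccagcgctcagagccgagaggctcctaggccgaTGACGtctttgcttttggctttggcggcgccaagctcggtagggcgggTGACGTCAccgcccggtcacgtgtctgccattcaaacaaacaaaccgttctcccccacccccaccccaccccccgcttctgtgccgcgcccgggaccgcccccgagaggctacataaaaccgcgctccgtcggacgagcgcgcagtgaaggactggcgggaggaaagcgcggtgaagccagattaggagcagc
Fkbp5: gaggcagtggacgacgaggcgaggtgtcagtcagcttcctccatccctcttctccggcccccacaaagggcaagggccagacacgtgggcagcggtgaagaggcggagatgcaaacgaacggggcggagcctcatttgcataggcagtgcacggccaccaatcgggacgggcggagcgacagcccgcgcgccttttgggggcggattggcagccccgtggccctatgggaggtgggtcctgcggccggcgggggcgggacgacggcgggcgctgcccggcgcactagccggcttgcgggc

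The Sgk1 palindrome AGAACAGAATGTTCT lay at chr10:21993701-21993715, its first base at position -189 from a start at 21993890. Sgk1 has 6 annotated windows, and an arm occurred in 3 of them. The window shown also held 1 GC box and 1 E-box. Another Sgk1 window held 1 TGACG, and another 4 GC boxes. The array reads the gene as 1 probe set, so the start used in these tissues was not measured. Tsc22d3 had 3 windows, and the 1 shown held a single arm at position -185 and 1 GC box. Of its other windows, which held no arm, 1 held a GC box and 1 a TGACG. Dusp1 held no receptor arm but 3 matches to TGACG, of which those at -143 and -140 overlap on opposite strands. It also held 3 GC boxes and 1 E-box. Fkbp5 held neither a receptor arm nor TGACG, but 4 GC boxes and 1 E-box. The windows of Hsd11b1 and Klf9 held no receptor arm, GC box or E-box, and that of Klf9 held 1 TGACG. A match or its absence in these short windows says nothing of receptor binding, which was not measured.

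Nr3c1 encodes the receptor itself. Its level was 9.54, 9.54, 9.73 and 9.64 in Liver F1, against 10.16, 9.61, 9.86 and 9.12 in Liver CT. The F1 values lay inside the CT range, and the difference of the means was -0.08 ± 0.21 (log2, SE of the limma fit, n = 4 each). In eWAT the level was 11.51, 11.48, 11.40 and 11.50 in F1, against 11.54, 11.47, 11.28 and 11.20 in CT. The groups overlapped there too, with a difference of 0.10 ± 0.14 and a 95% interval from -0.22 to 0.42 (limma adjusted p = 0.8308). CT livers were more scattered (SD 0.44) than F1 livers (SD 0.09).

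Hsd11b1 encodes the reductase that regenerates active corticosterone inside the cell from its inactive keto form. Its level was 15.53, 15.60, 15.99 and 15.73 in Liver F1, against 16.04, 16.26, 16.38 and 16.20 in Liver CT. Every F1 liver lay below every CT liver, with the closest F1 and CT values 0.05 apart, and the mean difference was -0.51 ± 0.16. The eWAT level was 14.54, 13.83, 13.42 and 13.71 in F1, against 13.03, 13.39, 13.48 and 13.28 in CT. Here 3 of the 4 F1 values lay above all CT values and eWAT F1 replicate 3 lay among them. The eWAT difference of 0.58 ± 0.24 (95% interval 0.03 to 1.13) did not pass the test (limma adjusted p = 0.471). The highest value belonged to eWAT F1 replicate 1, the library with seminal vesicle transcripts, and without it the difference was 0.36. Hsd11b1 was the only one of the 8 genes, apart from the nearly level Nr3c1, whose mean differences had opposite signs in the 2 tissues.

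Sgk1 encodes the serum and glucocorticoid-regulated kinase, which acts on ion transport and cell survival downstream of insulin and steroid signals. Its level was 8.61, 8.89, 8.76 and 8.66 in Liver F1, against 10.80, 10.39, 10.29 and 9.94 in Liver CT. The F1 livers were tightly grouped and the highest of them was 1.05 below the lowest CT liver. The mean difference was -1.62 ± 0.19, a 3.08-fold lower mean in Liver F1. This is the value on which the 8 genes were chosen. It ran from -1.76 to -1.48 over 18 alternative fits. Since the groups did not overlap, leaving out libraries could not change its sign. In eWAT the level was 11.70, 11.36, 12.08 and 11.87 in F1, against 12.03, 12.04, 12.03 and 12.51 in CT. The lower 3 F1 libraries lay below all CT libraries and eWAT F1 replicate 3 lay among them. The eWAT difference was -0.40 ± 0.20, with a 95% interval from -0.85 to 0.05 (limma adjusted p = 0.5369).

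Fkbp5 encodes an immunophilin that joins the receptor's chaperone complex, lowers its hormone binding and is itself induced by the receptor. Its level was 13.20, 12.99, 14.27 and 12.49 in Liver F1, against 9.92, 11.0, 11.68 and 12.69 in Liver CT. The mean was higher in Liver F1 by 1.92 ± 0.55, yet CT replicate 4 exceeded F1 replicate 4. Fat libraries gave 15.50, 15.90, 15.74 and 14.92 in F1, against 13.23, 13.30, 14.27 and 15.20 in CT. Here too the lowest F1 and the highest CT library, both replicate 4, kept the groups from separating. The eWAT difference of 1.52 ± 0.43 (95% interval 0.55 to 2.48) was the largest among the 8 genes but did not pass the test (limma adjusted p = 0.3857). Fkbp5 was among the more variable transcripts of the control groups. Its SD was 1.16 in Liver CT, above that of 99.8% of the 14772 genes tested in liver, and 0.93 in eWAT CT, above 96.1% of the 14766 tested in eWAT.

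Zbtb16 encodes a zinc finger transcription factor, PLZF, that glucocorticoids induce strongly in many cell types. Its level was 14.74, 14.91, 15.04 and 13.65 in Liver F1, against 11.16, 12.54, 13.61 and 14.33 in Liver CT. Again F1 replicate 4 was low and CT replicate 4 high in their groups, and the mean difference was 1.68 ± 0.60. CT replicate 1, far below the other livers, carried much of this difference, which was 1.09 without it. The eWAT values were 16.01, 16.37, 16.52 and 15.60 in F1, against 15.14, 14.85, 15.44 and 15.89 in CT. The order of the libraries repeated that of Fkbp5 at the ends, with F1 replicate 4 low and CT replicate 4 high. The eWAT difference was 0.80 ± 0.27 (95% interval 0.18 to 1.41) and did not pass the test (limma adjusted p = 0.4119).

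Tsc22d3 encodes GILZ, the glucocorticoid-induced leucine zipper protein, a mediator of anti-inflammatory steroid action. Its level was 10.99, 10.90, 12.20 and 11.68 in Liver F1, against 12.13, 12.74, 12.72 and 12.64 in Liver CT. Only F1 replicate 3 reached the CT range, and the mean difference was -1.12 ± 0.29. It was smaller, -0.62, without F1 replicates 1 and 2, the livers with muscle transcripts. It was -1.61 without F1 replicates 3 and 4, the livers with high Dbp and Saa1. Each of these fits kept only the other pair of F1 livers, so the traits cannot be told apart. In eWAT the level was 12.38, 12.74, 13.49 and 12.87 in F1, against 12.79, 13.67, 13.44 and 13.41 in CT. The groups overlapped, with a difference of -0.46 ± 0.27 and a 95% interval from -1.07 to 0.15 (limma adjusted p = 0.6068), and it was -0.29 without eWAT F1 replicate 1.

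Klf9 encodes a Krüppel-like factor that is a direct receptor target and also cycles with the clock. Its level was 14.60, 14.79, 14.45 and 13.93 in Liver F1, against 14.02, 14.04, 13.84 and 13.76 in Liver CT. The upper 3 F1 livers lay above all CT livers, and the mean difference was 0.53 ± 0.20. It was 0.28 without the livers with muscle transcripts and 0.78 without those with high Dbp and Saa1. Values in eWAT were 14.72, 14.17, 14.58 and 13.83 in F1, against 13.66, 13.87, 14.27 and 14.10 in CT. The groups overlapped widely, with a difference of 0.35 ± 0.23 and a 95% interval from -0.17 to 0.87 (limma adjusted p = 0.6402). Without eWAT F1 replicate 1, the library with seminal vesicle transcripts, it was 0.22.

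Dusp1 encodes a phosphatase that switches off MAP kinases and is also an immediate early gene of stress and growth signals. Its level was 12.55, 14.17, 14.51 and 14.48 in Liver F1, against 16.51, 15.39, 14.38 and 15.36 in Liver CT. F1 replicate 1 was the lowest and CT replicate 1 the highest liver, CT replicate 3 lay among the F1 livers, and the mean difference was -1.48 ± 0.51. It was -0.92 without the livers with muscle transcripts and -2.05 without those with high Dbp and Saa1. The eWAT level was 14.92, 15.00, 15.74 and 16.01 in F1, against 16.11, 16.37, 15.94 and 16.35 in CT. The lower 3 F1 libraries lay below all CT libraries. The eWAT difference was -0.78 ± 0.26 (95% interval -1.37 to -0.18) and did not pass the test (limma adjusted p = 0.4119).

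**Figure D1:**
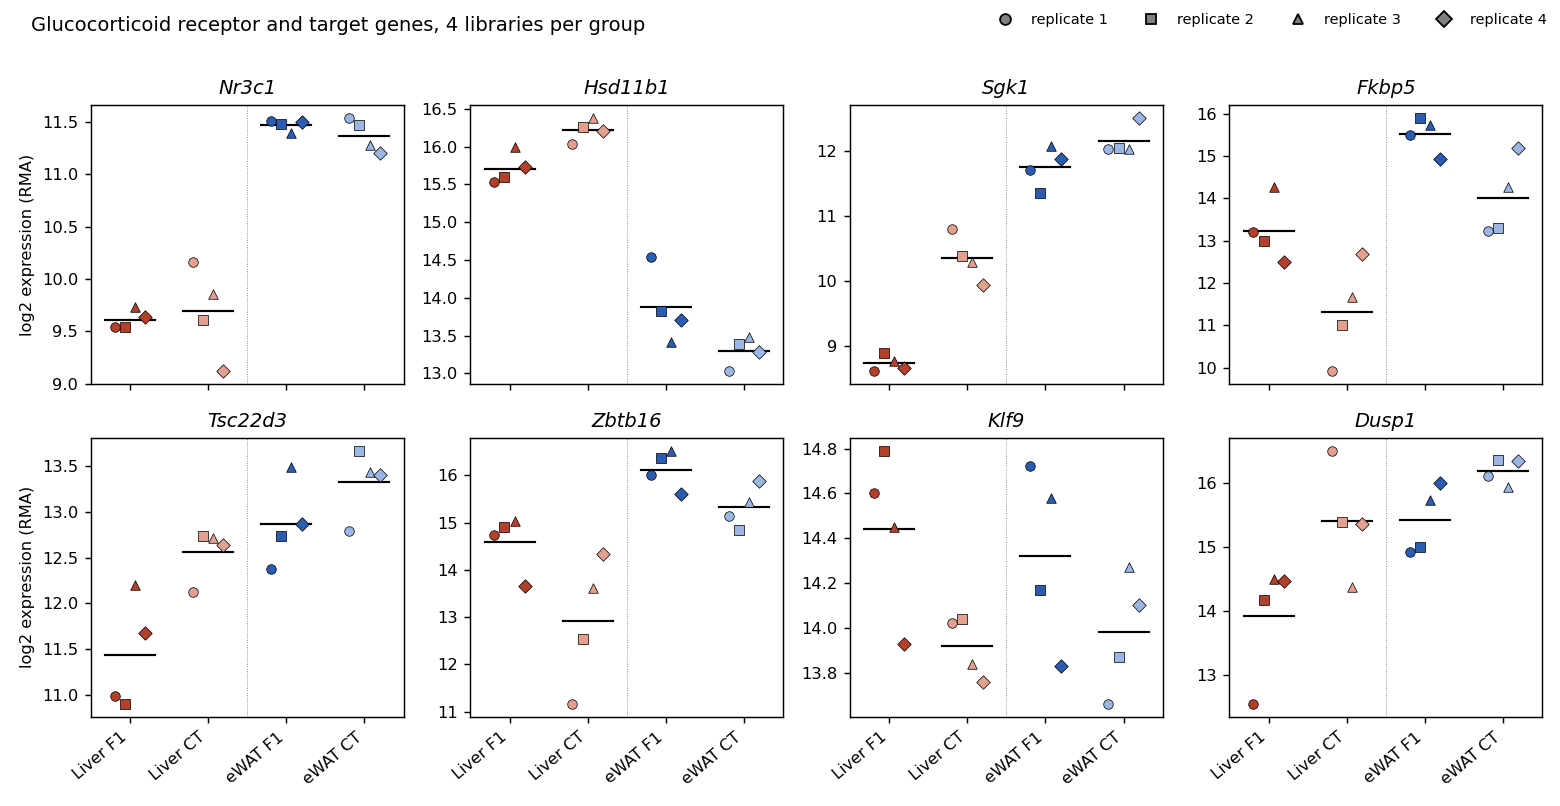
Log2 expression of each of the 8 genes in the 16 libraries, with 1 panel per gene, 1 point per library shaped by replicate number, and a bar at each group mean. Sgk1 in Liver F1 sits at 8.61 to 8.89, below all CT livers at 9.94 to 10.80, while the eWAT groups overlap for every gene.

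In liver the choice of the set fixed what a count of calls could show, so the following shares are background only. An adjusted p under 0.05 was reached by 0.156% of the 14772 genes tested, and by 0.0474% with a lower F1 mean, and among the 8 genes by Sgk1. Every F1 value lay below every CT value in 2 of the 8, Sgk1 and Hsd11b1, against 2.68% of the genes tested, and groups failed to overlap in either direction for 5.36%. The count of 1 among the 8 became 0 with a replicate block, without CT replicate 2, CT replicate 3 or F1 replicate 3, and without either pair of F1 livers named above. In eWAT, 0 of the 8 passed, against 0.0% of the 14766 genes tested, and the groups overlapped in all 8, against 5.92% of genes whose groups did not. By unadjusted limma p under 0.05, 4 of the 8 differed in eWAT, against 9.99% of genes tested. These were Fkbp5, Zbtb16 and Hsd11b1 with higher F1 means and Dusp1 with a lower one. The set was chosen with earlier results of these data known, so this count is a description. All 8 genes passed the filter on dim genes in each fit.

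The 6 targets did not share a direction. Fkbp5, Zbtb16 and Klf9 had higher F1 means in both tissues, while Sgk1, Tsc22d3 and Dusp1 had lower F1 means in both. The median difference of the 8 genes was -0.29 in liver and 0.22 in eWAT, against 0 for all genes tested in either tissue. Bulk tissue was measured, so fewer cells of a type and less RNA per cell cannot be told apart.

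**Figure D2:**
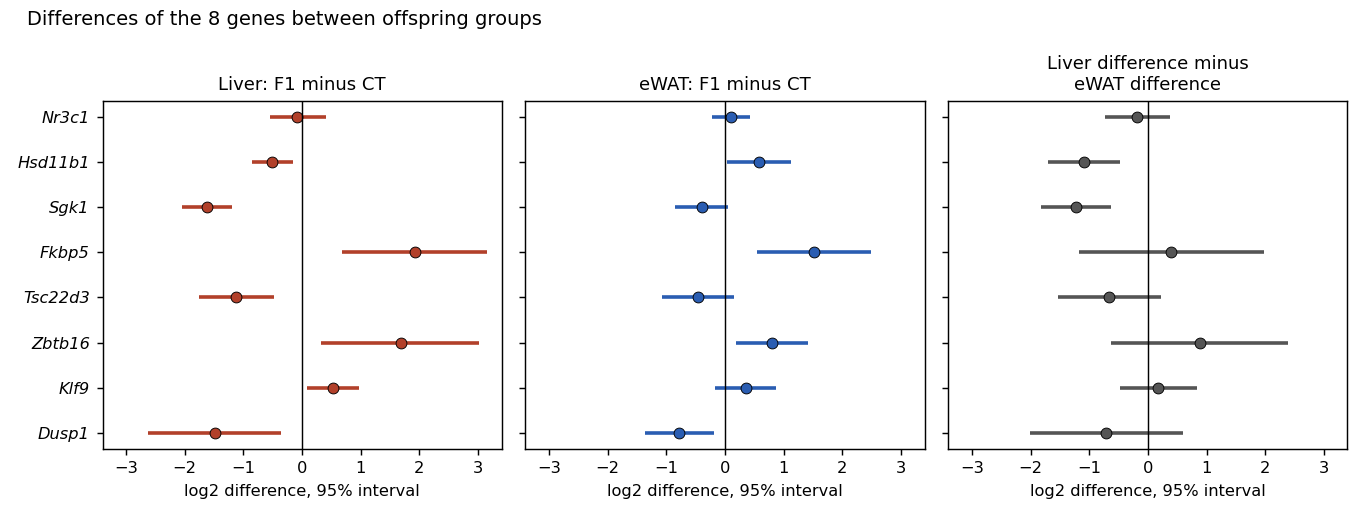
Log2 difference of F1 minus CT for each gene in liver and in eWAT, and the liver difference minus the eWAT difference, with points at the limma estimate and lines over its 95% interval. In eWAT the interval of Fkbp5, 0.55 to 2.48, lies above 0 and that of Dusp1, -1.37 to -0.18, below 0, though neither passed after adjustment over all genes.

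Set against each other, the F1 differences of liver minus eWAT were -1.23 ± 0.28 for Sgk1 and -1.09 ± 0.29 for Hsd11b1, with 95% intervals from -1.82 to -0.63 and from -1.71 to -0.47. These use the liver values on which the genes were chosen and are a description. For Fkbp5 the difference of differences was 0.40 ± 0.75, with an interval from -1.18 to 1.98. Its F1 effects in liver and eWAT therefore could not be separated at this number of libraries. The other 5 genes had values of -0.71 to 0.88, each with an interval that included 0. Of the 8 genes, 0 passed an adjusted p under 0.05, against 0.0795% of the 15090 genes tested.

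Across the 4 groups, Sgk1 had means of 11.75 ± 0.30 (SD) in eWAT F1 and 12.15 ± 0.24 in eWAT CT, above 8.73 ± 0.12 in Liver F1 and 10.36 ± 0.35 in Liver CT. The eWAT groups overlapped each other, and every eWAT library exceeded every liver library. Fkbp5 ran in descending order through eWAT F1 (15.52 ± 0.43), eWAT CT (14.00 ± 0.93), Liver F1 (13.24 ± 0.75) and Liver CT (11.32 ± 1.16), with each neighbour overlapping. Zbtb16 had the same order, with means of 16.12 ± 0.41, 15.33 ± 0.44, 14.58 ± 0.64 and 12.91 ± 1.38. Hsd11b1 was the reverse between tissues, at 15.71 ± 0.20 in Liver F1 and 16.22 ± 0.14 in Liver CT, against 13.88 ± 0.48 in eWAT F1 and 13.30 ± 0.19 in eWAT CT. Klf9 showed the least spread of group means, with 14.44 ± 0.37 in Liver F1, 13.92 ± 0.14 in Liver CT, 14.32 ± 0.40 in eWAT F1 and 13.98 ± 0.27 in eWAT CT. For Nr3c1, Tsc22d3 and Dusp1 both eWAT means exceeded both liver means. Since the tissues appeared to have been normalised apart, the order between tissues was not tested.

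**Figure D3:**
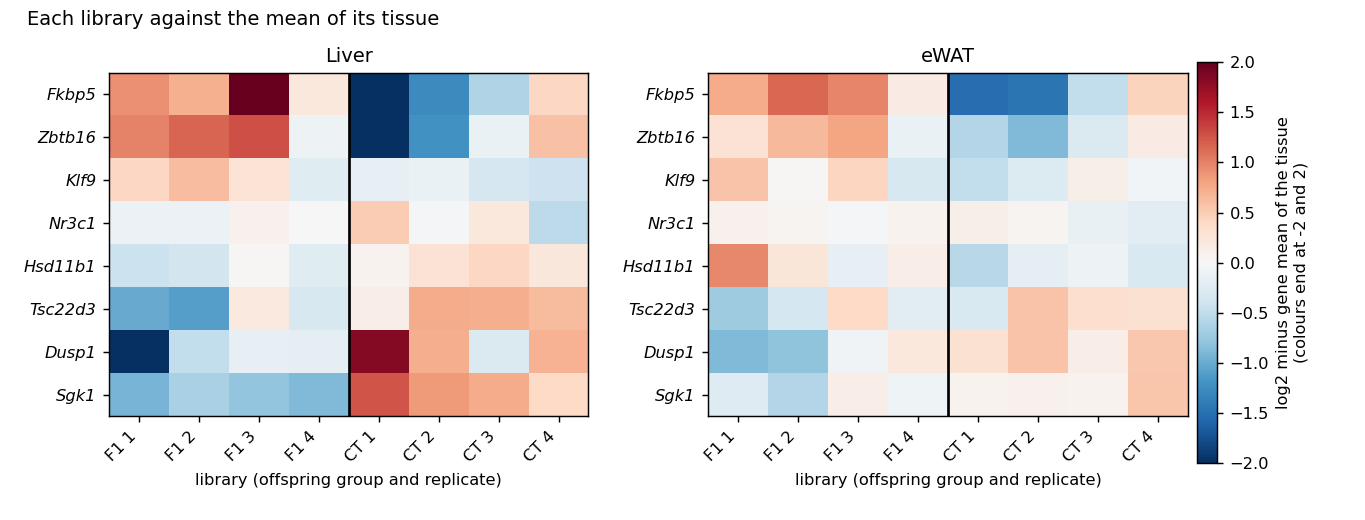
Each library's log2 value minus the mean of its tissue, for the 8 genes in rows and the 8 libraries of liver and of eWAT in columns, F1 left of CT. Colours end at -2 and 2; Fkbp5 and Zbtb16 are red in F1 replicates 1 to 3 and blue in CT replicates 1 and 2 of both tissues, and CT replicate 4 is red for both genes.

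The libraries with low or high Fkbp5 were also those with low or high Zbtb16. After each tissue's mean was removed, Zbtb16 was the gene most like Fkbp5 of 13473 compared over the 16 libraries (Pearson's r = 0.929), followed by Lpin1 (0.889), Pole4 (0.885) and Klf13 (0.879). Lpin1, a phosphatidate phosphatase, had means of 17.80 ± 0.45 in Liver F1 and 17.24 ± 0.73 in Liver CT. Sgk1 was most like Vamp2 (0.88), Osbpl8 (0.855), Tcim (0.848) and Hyi (0.82). Tcim had means of 8.56 ± 0.40 in Liver F1 and 10.70 ± 0.43 in Liver CT and of 9.91 ± 0.18 in eWAT F1 and 9.71 ± 0.25 in eWAT CT. Tsc22d3 was most like Gak (0.859), Agmo (0.847), Nfkbia (0.832) and Mef2d (0.816). Nfkbia, which encodes an inhibitor of NF-kappaB and is itself glucocorticoid-induced, had means of 10.81 ± 0.80 in Liver F1 and 11.34 ± 0.48 in Liver CT. These correlations are descriptions over libraries that also share group, foreign transcripts and RNA source.

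In eWAT the amount of hepatocyte transcripts varied between libraries. The summed level of the 13 markers ran from 17.06 to 19.96 in eWAT F1 and from 12.82 to 19.37 in eWAT CT, on the log2 scale. Albumin, their most abundant, was 16.95, 18.77, 16.65 and 19.07 in F1, against 14.16, 12.43, 18.91 and 18.55 in CT. The 2 libraries with the least of it, CT replicates 1 and 2, also had the lowest Fkbp5. Within eWAT F1 the order was the opposite, since replicate 4, with the highest marker median, had the lowest Fkbp5. In a split into 2 sets of 4 libraries by marker level, the CT libraries of the lower set still had medians of 7.69 and 7.09, against 11.63 and 10.74 in its F1 libraries, so the markers were not held level. The split and a fit with the marker median as a covariate were added after the data were seen. Each set held 2 F1 and 2 CT libraries, so no test result is read from them. Among the 4 libraries with lower hepatocyte markers the Fkbp5 difference was 2.35 ± 0.25, and among the 4 with higher markers it was 0.68 ± 0.48. With the marker median as a covariate it was 1.14 ± 0.42. Zbtb16 differed by 1.27 ± 0.29 and 0.32 ± 0.36 in the lower and higher sets. Klf9 had opposite signs, at 0.89 ± 0.25 in the lower set and -0.18 ± 0.26 in the higher. Sgk1 differed by -0.14 ± 0.26 in the lower set and by -0.66 ± 0.31 in the higher. Dusp1 differed by -0.91 ± 0.35 in the lower set and by -0.64 ± 0.41 in the higher. The part of the liver transcripts in these differences cannot be told from this split.

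Medians of endothelial markers also lay apart between the eWAT groups, while those of macrophage markers overlapped. Medians of the 7 endothelial markers were 10.82 to 11.11 in eWAT F1 and 11.18 to 11.53 in eWAT CT, without overlap, while their summed levels were 15.92 to 16.45 in F1 and 16.22 to 16.38 in CT. Medians of the 13 macrophage markers were 11.17 to 11.85 in F1 and 11.73 to 12.65 in CT, and their summed levels 16.58 to 17.2 in F1 and 17.15 to 18.04 in CT. Lymphocyte marker medians went the other way, at 4.97 to 5.94 in F1 and 4.76 to 5.17 in CT, with overlap. Fibroblast and stellate medians, at 13.63 to 14.17 in F1 and 13.93 to 15.14 in CT, overlapped. So did mesothelium medians, at 9.6 to 10.86 and 10.02 to 10.78. Sgk1, Tsc22d3 and Dusp1 had lower means in eWAT F1, and the part of any of these cells in their differences was not tested.

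**Figure D4:**
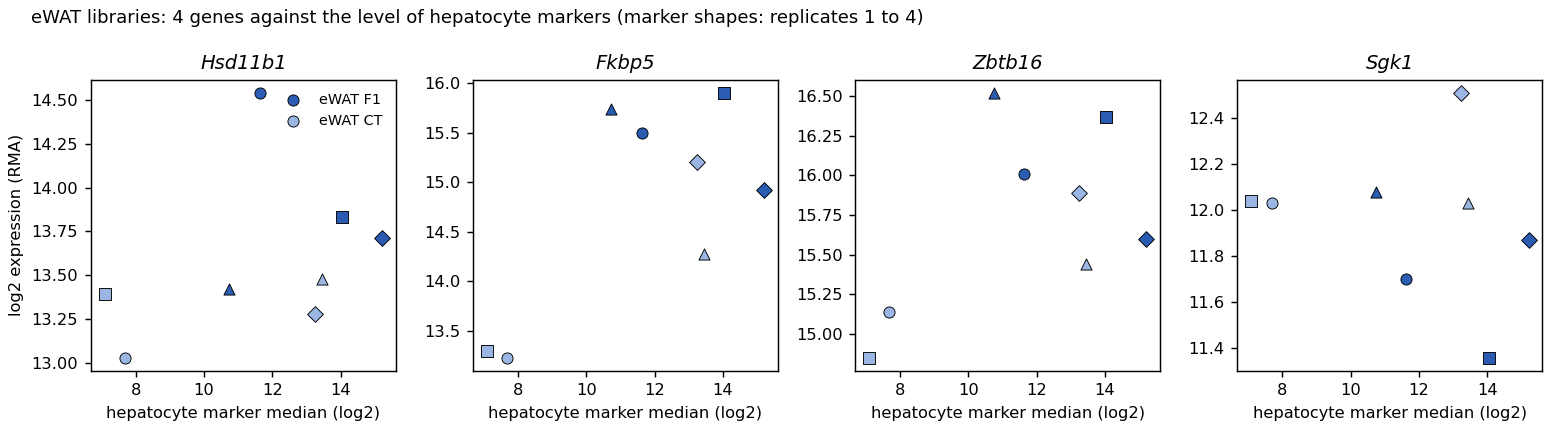
Log2 expression of Hsd11b1, Fkbp5, Zbtb16 and Sgk1 in the 8 eWAT libraries against the log2 median of 13 hepatocyte markers, eWAT F1 dark and eWAT CT light. The 2 CT libraries with medians of 7.69 and 7.09 hold the lowest Fkbp5 and Zbtb16, while CT replicate 4, at 13.24, lies above eWAT F1 replicate 4 for both genes.

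In liver the clock genes Dbp and Nr1d1 stood higher in every F1 library than in every CT library. Nr1d1 was 12.87, 13.96, 13.9 and 14.2 in Liver F1, against 11.69, 12.27, 12.14 and 12.53 in Liver CT. Dbp was 8.83, 9.04, 12.39 and 11.87 in Liver F1, against 6.22, 8.44, 7.82 and 8.38 in Liver CT, and its partner in antiphase, Arntl, was 10.16, 9.70, 6.74 and 9.26 in F1, against 10.31, 9.90, 10.36 and 9.73 in CT. Liver F1 replicate 3, with the highest Dbp and lowest Arntl, had the highest Fkbp5, Zbtb16 and Tsc22d3 of the F1 livers. Liver F1 replicate 4 went the other way, with the next highest Dbp and the lowest Fkbp5, Zbtb16 and Klf9 of the F1 livers. Liver CT replicate 1, with the lowest Dbp, had the lowest Fkbp5 and Zbtb16 of all livers. Sgk1 in Liver F1, the value on which the set was chosen, spanned 0.28 across the same libraries. The Sgk1 difference was -1.65 ± 0.25 without the 2 livers with muscle transcripts and -1.60 ± 0.26 without the 2 with high Dbp and Saa1. The F1 livers kept in the latter fit had Dbp at 8.83 and 9.04 and Nr1d1 at 12.87 and 13.96. These values still lay above every CT liver, so the fit did not hold the clock genes level. In eWAT, Dbp was 9.16 to 10.8 in CT and 10.34 to 12.52 in F1. There CT replicate 4 had the highest Dbp, lowest Arntl (9.34) and highest Fkbp5 of its group. F1 replicate 4 had the lowest Dbp, highest Arntl (10.23) and lowest Fkbp5 of its group. The orders differed elsewhere. F1 replicate 3 had the highest Dbp but not the highest Fkbp5. CT replicate 2 had more Dbp than CT replicate 3 but less Fkbp5. The part of sampling time was not tested in either tissue, since the hour is not given in the sources used here.

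Among 25 measured genes that glucocorticoids are also known to induce, F1 means in liver were higher in 11 and lower in 14, with a median difference of -0.05. Of these, 8 had an unadjusted p under 0.05, against 9.12% of all genes tested, and in 6 the groups did not overlap, against 5.36%. The list was drawn up with earlier results of these data known, so its counts are a description. The metallothionein Mt2, which binds zinc and copper, was the 1 gene called in liver, against 0.156% of all genes tested. It stood at 10.71 to 12.26 in Liver F1, against 6.28 to 7.88 in Liver CT, and rose by 4.88 ± 0.41 (limma adjusted p = 0.00129). Its neighbour Mt1 differed by 3.04 ± 0.50 without passing (adjusted p = 0.06145). Mt1 did pass with all 16 libraries in 1 fit (0.0007428), with median centring (0.0438) and without Liver F1 replicate 4 (0.04209). Igfbp1, which binds insulin-like growth factors, had means of 12.61 ± 0.78 in Liver F1 and 14.10 ± 0.55 in Liver CT (adjusted p = 0.2541). Lcn2, an acute phase protein, was 7.68, 7.33, 11.75 and 12.62 in Liver F1, against 4.71, 5.58, 4.91 and 5.46 in Liver CT, and its high libraries were those with high Saa1. Its difference of 4.68 ± 1.08 did not pass (limma adjusted p = 0.1875), but did with all 16 libraries in 1 fit (0.03203). It was 2.34 ± 0.29 without those 2 livers and 7.02 ± 0.34 without the 2 with muscle transcripts. These pairs were split after the data were seen, along Saa1, so no test result is read from them.

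In eWAT 0 of the same 25 genes were called, with 14 higher and 11 lower F1 means, a median of 0.08, and 4 genes at an unadjusted p under 0.05, against 9.99% of all genes tested. Cebpd, an adipogenic transcription factor, was 10.66, 10.16, 10.44 and 10.54 in F1, against 10.98, 11.19, 10.82 and 11.34 in CT. Its groups did not overlap, and its difference of -0.63 ± 0.18 did not pass (limma adjusted p = 0.3857). Mt2 differed by 0.60 ± 0.26 in eWAT (adjusted p = 0.4908), and the difference between its F1 effects in liver and eWAT, 4.28 ± 0.52, passed (adjusted p = 0.002237). The hepatocyte genes Tat, which is also on the hepatocyte marker list, and Tdo2 followed albumin across the eWAT libraries. Tat stood at 7.79, 10.19, 8.12 and 11.10 in F1, against 5.74, 3.57, 11.55 and 11.17 in CT.

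**Figure D5:**
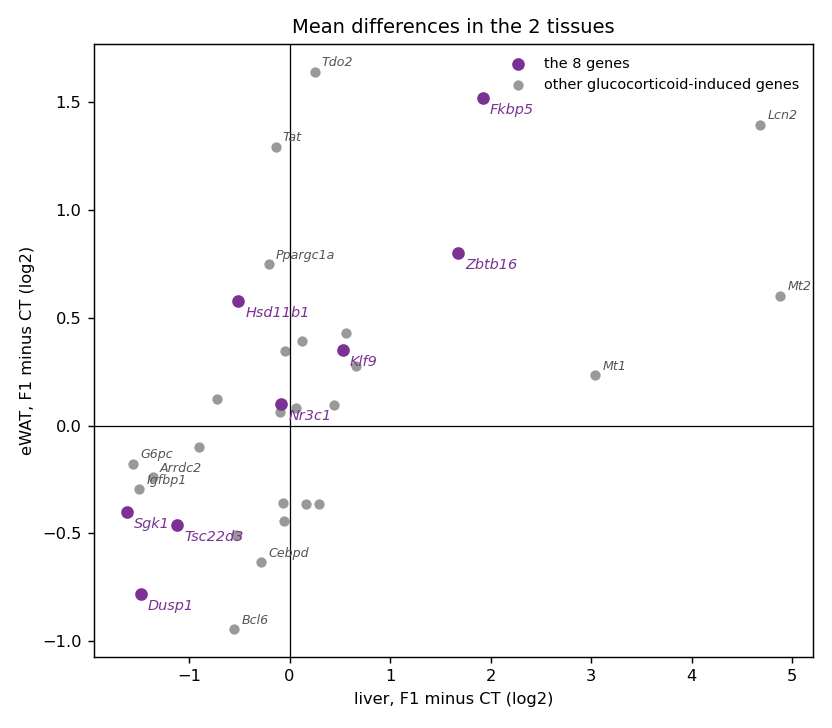
Mean log2 difference of F1 minus CT in liver (horizontal) and eWAT (vertical) for the 8 genes and for 25 other glucocorticoid-induced genes. Fkbp5 (1.92 and 1.52) and Zbtb16 (1.68 and 0.80) lie upper right, Sgk1 (-1.62 and -0.40) and Dusp1 (-1.48 and -0.78) lower left, and Mt2 far right at 4.88 and 0.60.

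Genes that act on the receptor or its ligand were called in neither tissue, against 0.156% of all genes tested in liver and 0.0% in eWAT. An unadjusted p under 0.05 was reached by 9.12% of all genes tested in liver and 9.99% in eWAT. The counts that follow are set beside these shares, and no result about the lists is read from them. Of 15 measured chaperones and coregulators, 7 had higher and 8 lower F1 means in liver, where 1 had an unadjusted p under 0.05, Hsp90aa1 at 0.82 ± 0.29 (limma adjusted p = 0.4456). The median difference of the list was -0.01 in liver and 0.06 in eWAT. In eWAT 9 were higher and 6 lower, and Fkbp4, the 1 gene at an unadjusted p under 0.05, an immunophilin that competes with Fkbp5 for the complex, stood at 10.97 to 11.38 in F1, against 9.85 to 10.77 in CT. Its difference was 0.70 ± 0.23 (adjusted p = 0.4089). Of 9 kept genes of corticosteroid supply and clearance, 5 were higher and 4 lower in liver, with a median of 0.08, and 1, the steroid hydroxylase Cyp3a13, had an unadjusted p under 0.05 (0.85 ± 0.23, adjusted p = 0.273). H6pd, which supplies the cofactor for Hsd11b1, differed by 0.37 ± 0.17 in liver and by 0.35 ± 0.18 in eWAT (adjusted p = 0.5519 and 0.5526). In eWAT 7 of 10 were higher, 0 at an unadjusted p under 0.05, with a median of 0.32, and their liver enzymes Akr1c6 and Cyp3a11 were at -0.09 and -0.53 with the hepatocyte marker median as a covariate, against 1.72 and 1.94 without it.

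Partners and substrates of the Sgk1 kinase were likewise called in neither tissue, with 8 higher and 11 lower F1 means among 19 in liver and 14 higher and 4 lower among 18 in eWAT. Median differences were -0.02 in liver and 0.08 in eWAT, and 2 genes in liver and 1 in eWAT had an unadjusted p under 0.05, against 9.12% and 9.99% of all genes tested. Akt1, a related kinase, was 10.98, 10.95, 11.08 and 10.90 in Liver F1, against 10.44, 10.48, 10.82 and 10.22 in Liver CT, a difference of 0.49 ± 0.16 (limma adjusted p = 0.3879). Rictor, a subunit of the complex that activates Sgk1, differed by 0.42 ± 0.18 (adjusted p = 0.5361). Ndrg1, a substrate of the kinase, differed by -0.42 ± 0.20 (adjusted p = 0.591). In eWAT the sodium channel subunit Scnn1a differed by 0.88 ± 0.33 (adjusted p = 0.4294).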

How the data were processed

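Expression was measured on Affymetrix mouse arrays from 150 ng of total RNA per sample. The deposited log2 values had been made by the authors by RMA, which corrects background, scales arrays to 1 distribution and summarises probes; the submitters' processing notes name Transcriptome Analysis Console 4.0. Of 22206 probe sets, 19572 had 1 symbol in the platform annotation and 2634 had none, and for 55 symbols the brightest on average was used. No genome build is stated for the probe sets. Values reached 19.93 at the top of the scale.

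F1 was compared with CT in each tissue with limma 3.58.1 in R 4.3.3 (lmFit, eBayes), on genes with a mean above the 25th percentile of the libraries, with Benjamini-Hochberg adjustment over all of them and a threshold of 0.05. The tissue difference of the F1 effect was an interaction over 16 libraries. The fits were tested on simulated data. Of 100 simulated log2 differences of size 1, 53 were recovered in liver, 40 in eWAT and 22 in the interaction. Of 100 of size 2, 85, 81 and 79 were recovered. False calls numbered 11 in liver, 4 in eWAT and 4 in the interaction. Arrays have no read depth, so their number limits precision. Tables and figures were made with Python 3.11.15.

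The 8 genes and the lists of related genes and cell markers were chosen with earlier results of these data known. Rules then named all 8 genes, up to 4 genes per list and tissue by smallest p, and the 4 genes most like Sgk1, Fkbp5 and Tsc22d3. Single genes printed beside a result (albumin, Svs2, Dbp, Nr1d1, Arntl, Saa1, Tat, Acnat2 and Gm35041) were chosen after their values were seen. Alternatives covered the filter, fit, weights, scaling, probe sets, replicate block and each library left out. Deviations from group means of same-numbered F1 and CT libraries of a tissue correlated at -0.308 to 0.214. Those of same-numbered liver and eWAT libraries of an offspring group correlated at 0.011 to 0.048. The main fits did not use the numbers as pairs, and the interaction treated liver and eWAT libraries as independent. The library with the highest share of values equal to another of its group shared 1.43%, so none was a copy.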

Additional observations from a re-analysis of the deposited data

Results flagged for a closer look

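In 32 groups of 4 values of the 8 genes, 2 held a library far from its group, and chance sets about 1 in 20 such groups apart. Sgk1 in eWAT CT was 12.51 in replicate 4, while the other 3 libraries were at 12.03 to 12.04. Without it the eWAT difference was -0.28. Tsc22d3 in Liver CT was 12.13 in replicate 1, below the other 3 at 12.64 to 12.74, and without it the liver difference was -1.26. The F1 effect on Mt2 differed between liver and eWAT by 4.28 (limma adjusted p = 0.002237).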

How the results depend on the processing

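Sgk1 in liver, the value on which the set was chosen, differed by -1.76 to -1.48 over the 18 alternatives. Its groups did not overlap, so leaving out libraries could not change the sign. The count of the 8 genes called in liver was 1. It was 0 with the replicate block, without CT replicate 2, CT replicate 3 or F1 replicate 3 (0 to 1 with a replicate left out), and, as alternatives added after seeing the data, without the 2 livers with muscle transcripts or the 2 with high Dbp and Saa1. Over all genes, 23 were called in liver, 51 with all 16 libraries in 1 fit, 74 with a trended robust prior, 6 with the replicate block, 9 without the livers with muscle transcripts, and 7 to 24 with a replicate left out. In eWAT 0 became 25 with all 16 libraries in 1 fit, 0 to 1 with a replicate left out, and 0 with the block. The interaction's 12 became 35 with a trended robust prior, 13 with the block, and 7 to 27 with a replicate left out. Signs reversed for Nr3c1 in liver (-0.26 to 0.08 with a replicate left out, 0.08 without CT 1) and for the interaction of Fkbp5 (-0.07 to 0.86, lowest without Liver CT 1). So did the interactions of Cyp3a13 (-0.24 to 0.75; -0.07 without eWAT CT 3, -0.24 without eWAT F1 3) and Serpina6 (-0.80 to 0.26; 0.08, 0.14 and 0.26 without eWAT CT 2, F1 2 and F1 4). In eWAT signs reversed under the hepatocyte alternatives, which were also added after seeing the data. In the lower hepatocyte set this held for Nr3c1 (-0.05), Cyp3a13 (-0.41) and Phlpp1 (0.06). In the higher set it held for Klf9 (-0.18) and Foxo1 (-0.07), and with the marker covariate for Akr1c6 (-0.09) and Cyp3a11 (-0.53). The cause was not tested. Of 1416 values of named genes under alternatives, 1388 kept direction and side of the threshold. Nearly all of these genes were uncalled in the main fits, so this count says little about stability. The 6 values that lost a call were all of Sgk1 in liver, which was called in 12 of its 18 alternatives. In eWAT 0 of the 8 genes were called under any alternative. The 4 libraries a group limit precision, and values near the top of the scale are compressed.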
